A study of Drosophila melanogaster with 40 samples.

Results

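The mRNA levels of 10 glycolytic enzymes were followed in the heads of flies fed redox-altering drugs briefly or throughout adult life. The enzymes were chosen by gene symbol from a table of 17784 features, 11477 of which had enough reads to be tested. All 10 were found, and all 10 were tested. RNA-seq was performed on 40 pools, each made from 13 to 21 heads, and all donors were male Drosophila melanogaster of the genotype Wild-type that were 10 days old at collection. The pools formed 6 groups, namely chronic 2-AAPA (n = 7), chronic MitoQ (n = 6), chronic DMSO (n = 7), acute 2-AAPA (n = 6), acute MitoQ (n = 7) and acute DMSO (n = 7). Chronic groups received drug or vehicle for 10 days and acute groups for the last 24 h, with 2-AAPA at 10 uM, MitoQ at 100 uM and the vehicle DMSO at 0.2%.

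Several features of these groups limit them as a model. Per the study's methods, acute flies lived on cornmeal-molasses food before they were moved to the instant medium that carried the drug, whereas chronic flies stayed on the instant medium, so the length of drug feeding and the length of time on that medium cannot be told apart. The labels name DMSO as the vehicle of every group, while the study's list of drugs gives ethanol as the solvent of MitoQ, and no group fed ethanol alone was analysed here. The study lists 2-AAPA as an inhibitor of thioredoxin reductase and glutathione reductase. MitoQ is a ubiquinone-based antioxidant that accumulates in mitochondria. Each pool is a separate RNA sample, but the labels do not say whether the pools of a group came from separate cultures, so p-values measure the spread between pools. Heads were parted from bodies with sieves, and in pooled tissue fewer cells of a type and less RNA per cell cannot be told apart.

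Glycolysis breaks glucose down to pyruvate in the cytosol and yields ATP and NADH. Its early steps prime and split the sugar, its later steps recover energy, and lactate dehydrogenase can regenerate NAD+ from pyruvate. In flies, glycolysis in glial cells is known to help sustain neurons. Glucose 6-phosphate, the product of hexokinase, also feeds the pentose phosphate pathway, which makes NADPH.

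The libraries held between 24318573 and 30104079 counts each. The 10 enzymes together took between 0.431% and 0.723% of the counts. The share on nuclear ribosomal RNA genes ran from 0.262% to 8.89%. Chronic DMSO replicate 7 stood apart, with 1583 CPM (read counts scaled to a common library size with the TMM method) summed over 15 testis and sperm markers, against at most 2.81 CPM in any other pool. The labelled tissue was borne out by photoreceptor markers, whose sum lay between 62328 and 89282 CPM in every pool. None of the 11 photoreceptor, 9 neuron and 9 glia markers tested was called between chronic and acute feeding with all pools, while without chronic DMSO replicate 7 the photoreceptor gene inaD and the glial gene nrv2 were called higher.

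Hex-A encodes the main hexokinase, which phosphorylates glucose. It lies on the plus strand of chromosome X at 9585675 to 9589813 of the BDGP6.54 annotation. Pgi, glucose-6-phosphate isomerase, lies on the minus strand of 2R at 8910900 to 8914069. Pfk, phosphofructokinase, the committed step, lies on the plus strand of 2R at 10109740 to 10117457. Tpi, triosephosphate isomerase, lies on the minus strand of 3R at 30132981 to 30134599. None of these 4 genes overlaps another annotated gene.

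The remaining members act after the sugar has been split. Gapdh1 (minus strand, 2R at 7791901 to 7793380) and Gapdh2 (plus strand, X at 15868145 to 15869661) encode glyceraldehyde-3-phosphate dehydrogenase, which reduces NAD+. They are close copies, and it was not given in the sources used here how reads that fit both were counted, so the split of reads between them is uncertain. Pglym78, phosphoglycerate mutase, lies on the plus strand of 3R at 29148248 to 29149901 and overlaps eIF2D, on the opposite strand, by 6 exonic bases. Eno, enolase, lies on the minus strand of 2L at 1724768 to 1729636, and 362 of its 3718 exonic bases lie inside Rrp40 on the opposite strand. Pyk, pyruvate kinase, lies on the plus strand of 3R at 22367536 to 22372746, and Ldh, lactate dehydrogenase, on the minus strand of 3L at 6259105 to 6262694.

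The enzymes differed widely in level when counts were set per length of transcript. Gapdh2 had the highest median over the 40 pools, at 559 CPM per kb, followed by Pyk at 511 and Gapdh1 at 463 CPM per kb. Eno had a median of 261 CPM per kb, Tpi 244 and Pglym78 226. These neighbours were close, and Eno exceeded Tpi in 34 of 40 pools and Tpi exceeded Pglym78 in 27 of 40. Pgi, with a median of 178 CPM per kb, lay above Hex-A at 96.9 CPM per kb in all 40 pools, and the ranges did not overlap. Pfk followed at 66.9 CPM per kb. Ldh was by far the least abundant member, at 6.44 CPM per kb, with 222 to 658 counts per pool where each other member had at least 3718.

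**Figure D1:**
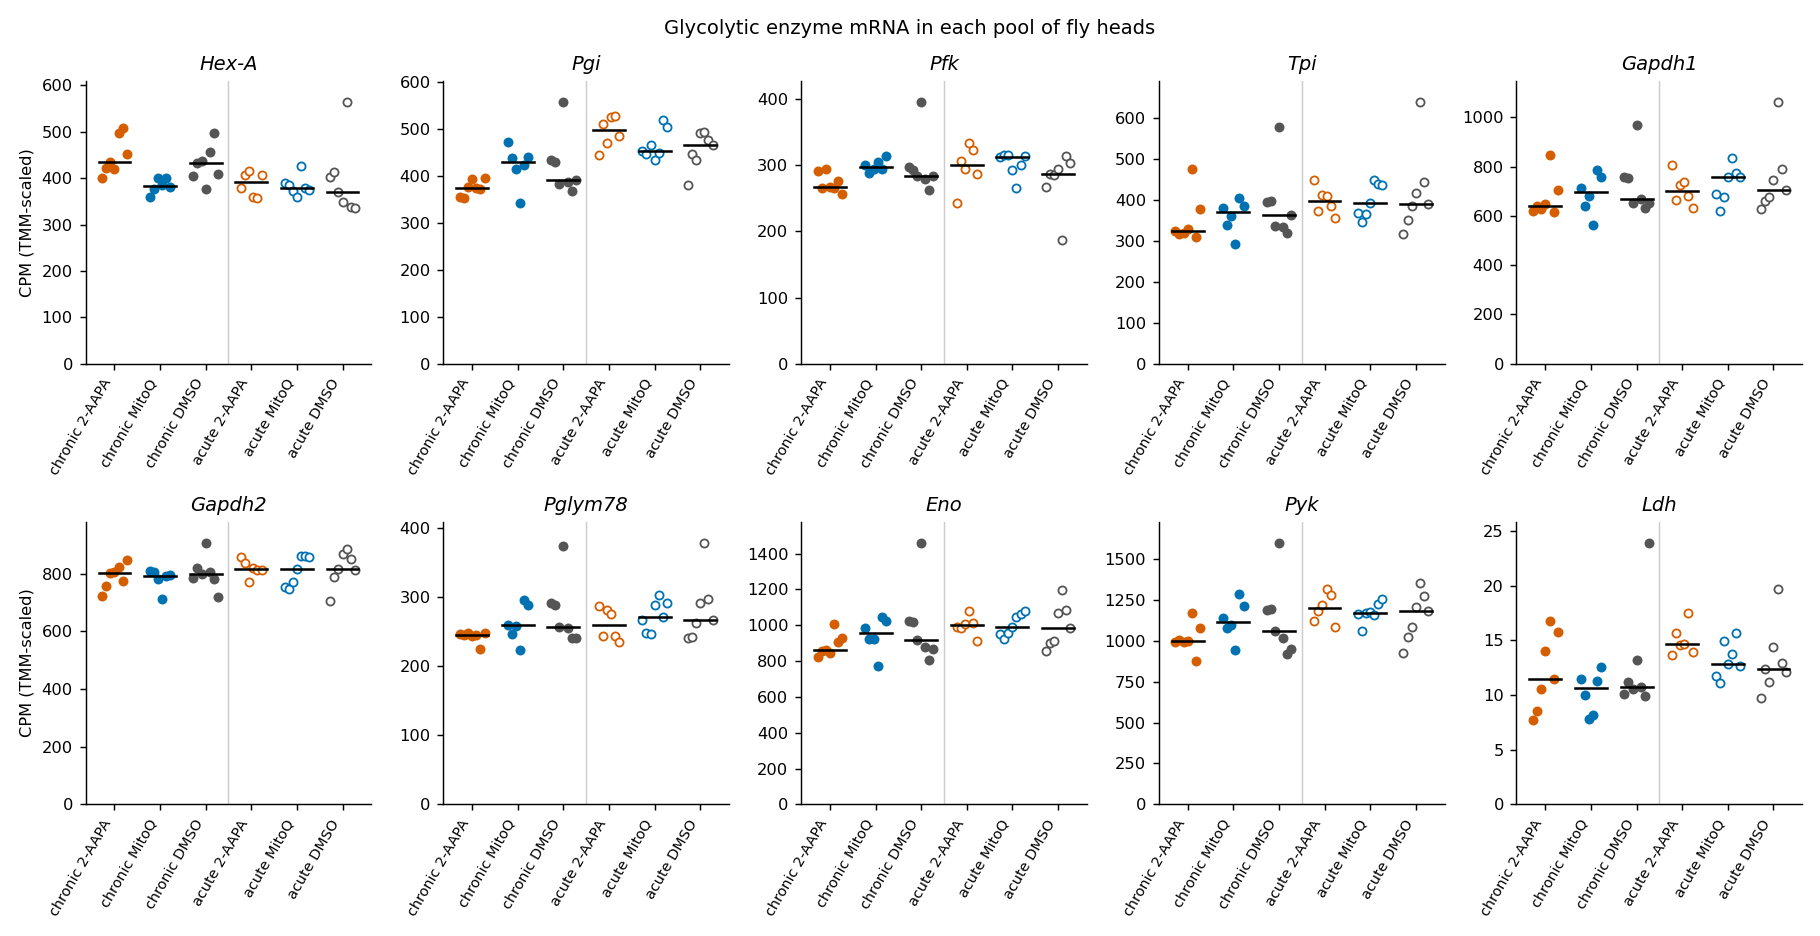
CPM of each enzyme (vertical axes, starting at 0) in each of the 40 pools, with chronic groups as filled points, acute groups as open points and the group median as a bar. Pgi in chronic 2-AAPA pools (352 to 396 CPM) lies below every acute 2-AAPA pool (443 to 528 CPM), whereas for the other enzymes the chronic and acute pools of each drug overlap. The share of all features without overlap was not counted.

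Chronic feeding was compared with acute feeding over the 3 drug conditions to ask how the length of exposure related to the enzymes. A single enzyme of the 10, Pgi, changed, and it fell. Across all features 8.64% were called in this comparison and 5.82% were called lower, so the share of enzymes called was near the background. An unadjusted p under 0.05 by edgeR was held by 4 of 10 enzymes and by 22.3% of features. The median log2 fold change of the 10 was -0.08, against 0.01 over all features. Of the 10 values 9 were negative, and 8 without chronic DMSO replicate 7, where 53.1% of all features were positive with all pools. Pfk, one of the 9, changed sign in 15 of 46 alternatives. Most of the enzymes varied together from pool to pool, so these are not separate observations. In every drug arm the chronic median lay below the acute median for 9 of 10 enzymes, with Hex-A as the exception each time. This was not counted over all features, whose fitted values were positive for 55.6% in the 2-AAPA arm, 46.2% in the MitoQ arm and 51.4% in the DMSO arm. The fitted values were less uniform in the DMSO arm, where 8 of 10 were negative with all pools and 4 of 10 without chronic DMSO replicate 7 (median 0.01).

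Pgi ranged from 342 to 557 CPM in the 20 chronic pools, with a median of 392 CPM, against 379 to 528 CPM and a median of 468 CPM in the 20 acute pools. The groups overlapped, but 18 of the 20 chronic pools lay below the acute median, and the highest chronic pool was chronic DMSO replicate 4. Pgi fell to 0.860 of its acute level (log2 fold change -0.22, SE 0.05, adjusted p = 0.00177 by edgeR's quasi-likelihood F test with Benjamini-Hochberg adjustment over all tested features). It passed under all 46 alternative analyses, with log2 fold changes between -0.25 and -0.20 and adjusted p between 4.35e-05 and 0.00413. None of these reached a fold change of 1.5.

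Hex-A was the only member with a positive fold change. It ranged from 359 to 508 CPM in chronic pools (median 414), against 336 to 564 CPM in acute pools (median 379). Most chronic pools, 17 of 20, lay above the acute median, although the highest value of all belonged to acute DMSO replicate 5. Its log2 fold change of 0.11 (SE 0.05) did not pass (adjusted p = 0.170 by edgeR, range over the alternatives 0.0131 to 0.275). Without acute DMSO replicate 5 it was 0.15 and passed.

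Ldh showed the most negative value among the members. It ranged from 7.76 to 23.9 CPM in chronic pools (median 11.0), against 9.75 to 19.7 CPM in acute pools (median 13.7). The highest pool was chronic DMSO replicate 7, at 23.9 CPM where the other 6 pools of that group reached at most 13.2 CPM. The log2 fold change of -0.24 (SE 0.10) did not pass (adjusted p = 0.163 by edgeR, range 0.0130 to 0.261). Without chronic DMSO replicate 7 it was -0.31 with an adjusted p of 0.0130 by edgeR, and Ldh passed. In that analysis 2 of 10 enzymes were called, Pgi and Ldh, where 9.26% of features were.

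Pyk ranged from 872 to 1597 CPM in chronic pools (median 1065), against 925 to 1354 CPM in acute pools (median 1177). The groups overlapped throughout, with the maximum again in chronic DMSO replicate 4. Its log2 fold change was -0.11 (SE 0.06, adjusted p = 0.269 by edgeR, range 0.0415 to 0.374). Pyk passed without chronic DMSO replicate 4, at -0.14, and with the ribosomal RNA share as a covariate, at -0.15. Chronic DMSO replicate 4 held the lowest ribosomal RNA share of all libraries, 0.262%, and the part of this in the result was not tested.

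The other 6 members were not distinguishable between schedules at this replication. Tpi had a log2 fold change of -0.15 (95% interval -0.29 to -0.01, adjusted p = 0.221 by edgeR). Eno had -0.08 (-0.19 to 0.02), Gapdh1 -0.07 (-0.18 to 0.05) and Pglym78 -0.06 (-0.16 to 0.04). The narrowest interval belonged to Gapdh2, at -0.04 (-0.10 to 0.02). Pfk, although the classical control point of the pathway, was closest to 0 (95% interval -0.10 to 0.09, adjusted p = 0.970 by edgeR).

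**Figure D2:**
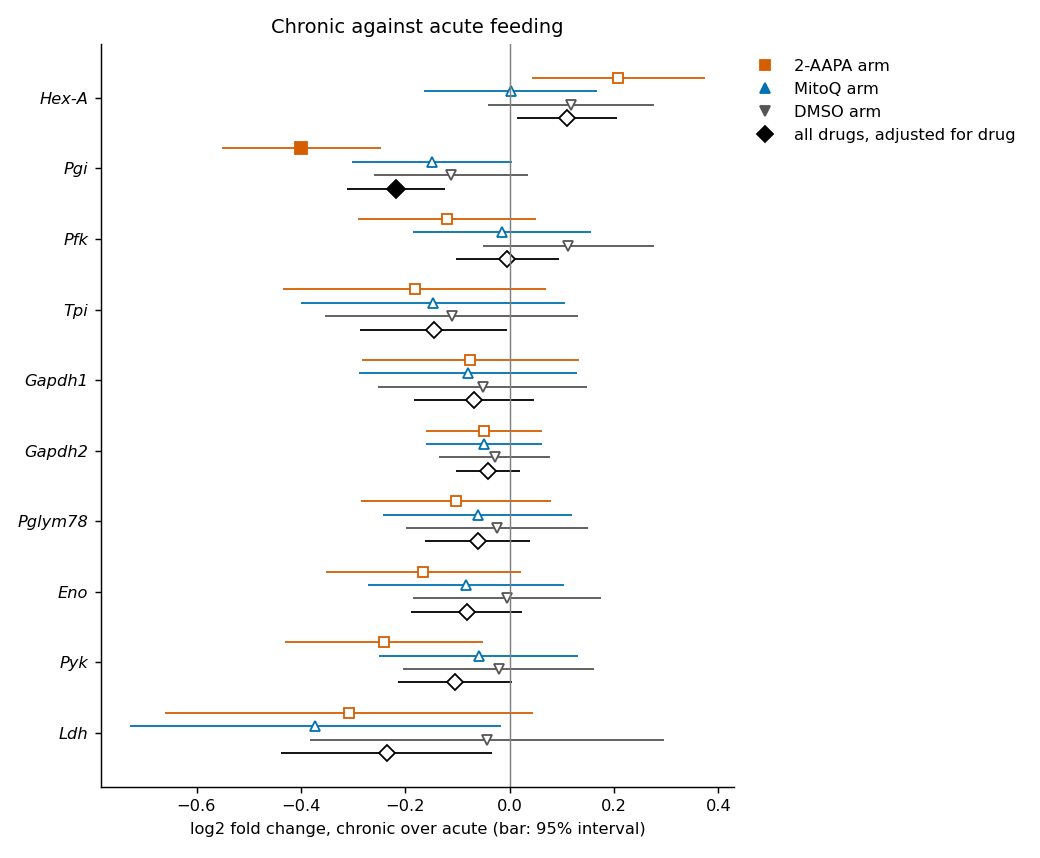
Log2 fold change of chronic over acute feeding for each enzyme (horizontal axis, bars for 95% intervals), in the 2-AAPA, MitoQ and DMSO arms and adjusted for drug over all of them. Filled symbols passed an adjusted p of 0.05, which Pgi alone did, at -0.40 in the 2-AAPA arm and -0.22 over the drugs.

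Within the 2-AAPA arm, Pgi was again the only enzyme of 10 called, in a comparison that called 4.21% of features and 3.35% as lower. Here 3 of 10 enzymes had an unadjusted p under 0.05 by edgeR, as did 14.4% of features. Pgi had 352 to 396 CPM in the 7 chronic 2-AAPA pools (median 373), against 443 to 528 CPM in the 6 acute 2-AAPA pools (median 497). All chronic pools lay below all acute pools, but how many of all features separate in this way was not counted. Pgi fell by 24.2% (log2 fold change -0.40, SE 0.08, adjusted p = 0.0012 by edgeR), and it passed under all 47 alternatives, with log2 fold changes between -0.43 and -0.37. The median of the 10 enzymes was -0.14 in this arm, against 0.02 over all features.

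Pyk followed a similar but less complete separation in the 2-AAPA arm. It had 872 to 1170 CPM in chronic 2-AAPA pools (median 995), against 1081 to 1313 CPM in acute 2-AAPA pools (median 1199). Of the 7 chronic pools, 6 lay below every acute pool, and how many of all features do so was not counted. The lowest was chronic 2-AAPA replicate 6, with 4.37% of counts on mitochondrial genes and a scaling factor of 0.884. The part of these in its values was not tested. The log2 fold change of -0.24 (SE 0.10) did not pass (adjusted p = 0.194 by edgeR, range 0.0820 to 0.404). Pglym78 and Pfk also lay below the acute 2-AAPA median in all 7 chronic pools, with log2 fold changes of -0.10 and -0.12 that did not pass.

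Hex-A went the other way in the 2-AAPA arm. It had 401 to 508 CPM in chronic 2-AAPA pools (median 435), against 358 to 416 CPM in acute 2-AAPA pools (median 392). The ranges overlapped by a single chronic pool, since 6 of 7 lay above every acute pool, which was not counted over all features. The highest of these was again chronic 2-AAPA replicate 6. The log2 fold change was 0.21 (SE 0.08, adjusted p = 0.201 by edgeR, range 0.0587 to 0.406), so it did not pass.

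In the MitoQ arm 0 of 10 enzymes were called, where 0.157% of features were. An unadjusted p under 0.05 was held by 5.21% of features and by 1 of 10 enzymes. That enzyme was Ldh, with 7.82 to 12.6 CPM in chronic MitoQ pools (median 10.7), against 11.1 to 15.7 CPM in acute MitoQ pools (median 12.8). All 6 chronic pools lay below the acute median, and the ranges overlapped. Its log2 fold change was -0.37 (SE 0.18, adjusted p = 0.951 by edgeR). Pgi had 342 to 472 CPM in chronic MitoQ pools (median 430), against 433 to 517 CPM in acute MitoQ pools (median 452), with a log2 fold change of -0.15 (SE 0.08, adjusted p = 0.998 by edgeR). DESeq2 also called 0 of 10 in this arm.

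In the DMSO arm, which carries vehicle alone, 0 of 10 enzymes were called, where 5.11% of features were. DESeq2 likewise called 0 enzymes. By edgeR 0 of 10 enzymes had an unadjusted p under 0.05, where 15.3% of features did (10.7% without chronic DMSO replicate 7). Pgi had 367 to 557 CPM in chronic DMSO pools (median 390), against 379 to 493 CPM in acute DMSO pools (median 466). The chronic median was lower, but chronic DMSO replicate 4 lay above every acute pool, and the log2 fold change of -0.11 (SE 0.08) did not pass. Without chronic DMSO replicate 7 this arm called 1.2% of features and again 0 enzymes, whereas without acute DMSO replicate 5 Hex-A passed, at a log2 fold change of 0.23 (adjusted p = 0.0401 by edgeR).

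Whether the schedule difference itself depended on drug was tested as an interaction. The test called 0 of 10 enzymes and 0% of features, and 1 enzyme, Pgi, had an unadjusted p under 0.05, as did 6.13% of features. For Pgi the unadjusted p was 0.025 and the adjusted p 0.617 in edgeR's quasi-likelihood F test. The Pgi difference in the 2-AAPA arm exceeded that in the DMSO arm by -0.29 on the log2 scale (SE 0.11, adjusted p = 0.393 by edgeR). The Pgi decline was therefore not shown to be particular to 2-AAPA. DESeq2 called 0 enzymes in the interaction.

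The drugs were then set against vehicle at matched schedules, 4 comparisons that share their DMSO pools within a schedule. After chronic 2-AAPA feeding 0 of 10 enzymes were called, where 2.13% of features were. An unadjusted p under 0.05 was held by 2 of 10 enzymes and by 10.1% of features. The calls over all features rested on chronic DMSO replicate 7, since without it 0 features were called and 621 (5.42%) had an unadjusted p under 0.05. Pgi had 352 to 396 CPM in chronic 2-AAPA pools (median 373), against 367 to 557 CPM in chronic DMSO pools (median 390). These ranges overlapped, and the log2 fold change was -0.17 (SE 0.08, adjusted p = 0.390 by edgeR). Pglym78 had 224 to 249 CPM in chronic 2-AAPA pools (median 245), against 240 to 374 CPM in chronic DMSO pools (median 256), with a log2 fold change of -0.19 (SE 0.09, adjusted p = 0.425 by edgeR). All 7 chronic 2-AAPA pools lay below the chronic DMSO median for Pglym78.

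After chronic MitoQ feeding 0 of 10 enzymes were called, where 1.82% of features were. An unadjusted p under 0.05 was held by 0 enzymes and by 8.29% of features. Without chronic DMSO replicate 7 this comparison also called 0 features, and 336 had an unadjusted p under 0.05. Hex-A had 359 to 401 CPM in chronic MitoQ pools (median 383), against 377 to 497 CPM in chronic DMSO pools (median 432). All 6 chronic MitoQ pools lay below the chronic DMSO median, yet the log2 fold change of -0.16 (SE 0.08, adjusted p = 0.661 by edgeR) did not pass. Pgi and Pfk had fold changes near 0, with 95% intervals of -0.15 to 0.15 and -0.17 to 0.17 on the log2 scale.

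Acute feeding was compared in the same way. Acute 2-AAPA against acute DMSO called 0 of 10 enzymes and 0.0261% of features, and acute MitoQ against acute DMSO called 0 of 10 and 0% of features. No enzyme had an unadjusted p under 0.05 in either comparison, where 5.92% of features did with acute 2-AAPA and 1.54% with acute MitoQ. For Pgi the 95% intervals of the log2 fold change were -0.04 to 0.27 with acute 2-AAPA and -0.11 to 0.18 with acute MitoQ. For Gapdh2 they were -0.11 to 0.11 and -0.12 to 0.09, and for the rarer Ldh -0.17 to 0.54 and -0.34 to 0.34. A joint test among the 3 drug conditions over both schedules called 0 of 10 enzymes and 0.00871% of features. It put 0 enzymes and 8.19% of features at an unadjusted p under 0.05. DESeq2 called 0 enzymes in each of these comparisons and in both chronic ones.

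Most of the enzymes varied together from pool to pool within a group. Each pool's deviation from the mean log2 CPM of its own group was correlated between enzymes over the 40 pools, as a description, since all values of a pool share its library and its scaling. Over the 45 pairs of enzymes Pearson's r ran from -0.75 to 0.98 with a median of 0.47. The same r was not computed for pairs of other features, so the covariation was not shown to be particular to these enzymes. The tightest pair was Tpi and Gapdh1 (r = 0.98), followed by Eno and Pyk (r = 0.93). Gapdh1 and Gapdh2, the close copies, had r = 0.73.

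A block of 7 enzymes, Pgi, Tpi, Gapdh1, Gapdh2, Pglym78, Eno and Pyk, picked out after these values were seen, had r between 0.60 and 0.98 in all 21 pairs, with a median of 0.83. With all pools, Hex-A and Pfk stood outside it. For Pfk this depended on single pools, since its r with the block ran from -0.19 (Gapdh1) to 0.38 (Pgi). Without acute DMSO replicate 5 it ran from 0.17 (Gapdh2) to 0.66 (Pgi). With chronic DMSO replicate 4 left out as well, it ran from -0.16 (Gapdh1) to 0.45 (Pgi). In log2 CPM over all pools, r with the mean of the other members was -0.22 for Hex-A and -0.03 for Pfk. It was 0.95 for Eno and 0.93 for Tpi, and differences between groups were not removed from these values. In the deviations from group means, Hex-A and Pfk ran against each other (r = -0.75), and r was -0.55 without acute DMSO replicate 5. With all pools Ldh was intermediate, with r = 0.47 to the mean of the others in log2 CPM. In the deviations its r with the block ran from 0.25 (Pglym78) to 0.53 (Tpi). Without chronic DMSO replicate 7 it ran from 0.46 (Pglym78) to 0.70 (Gapdh2).

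**Figure D3:**
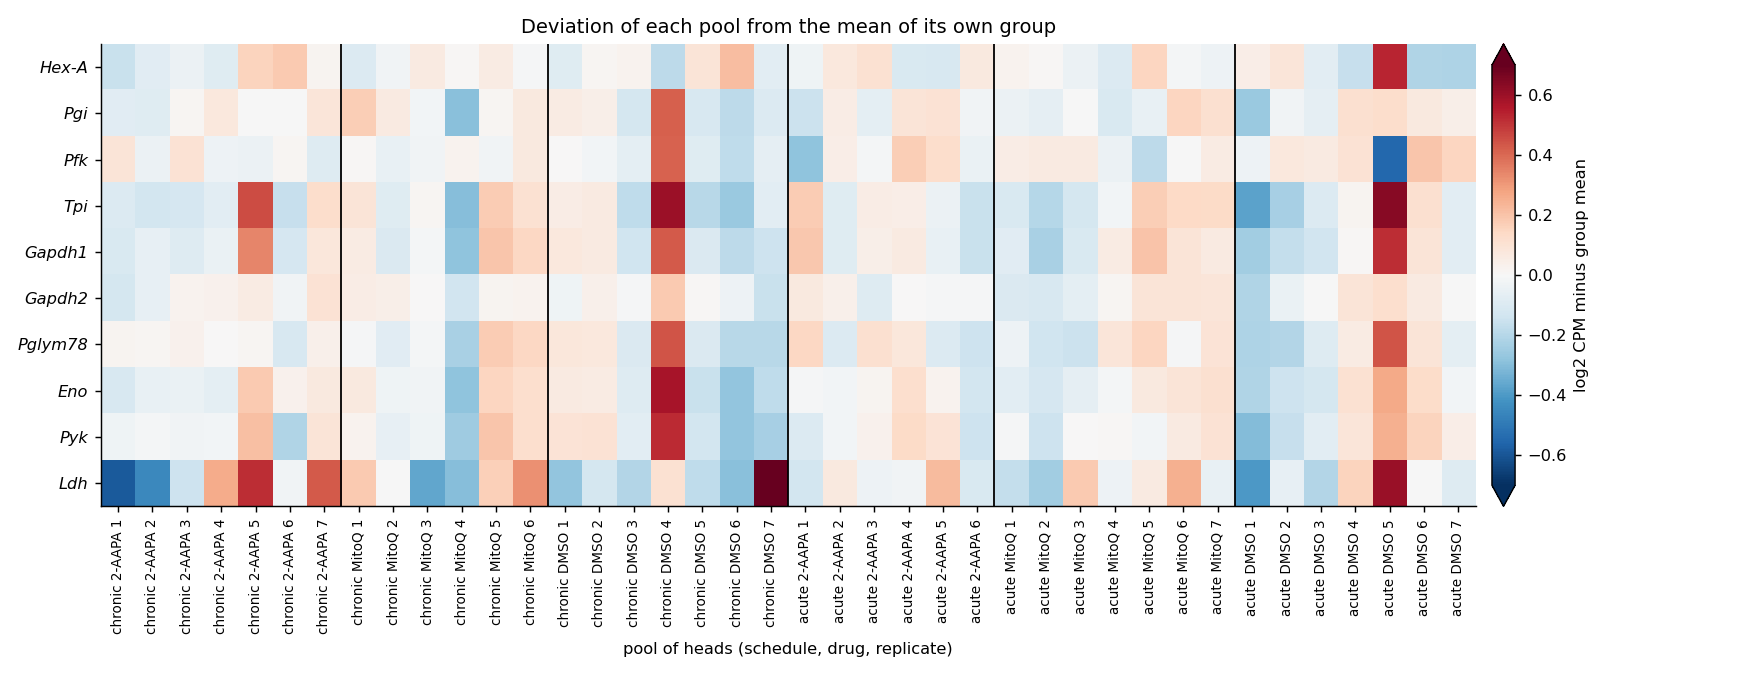
Deviation of each pool's log2 CPM from the mean of its own group (colour, saturating at the ends of the bar), with enzymes in rows and the 40 pools in columns ordered by group. Chronic DMSO replicate 4 and acute DMSO replicate 5 are high over most rows, chronic MitoQ replicate 4 is low over most rows, and Pfk in acute DMSO replicate 5 is low where its neighbours are high.

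The extreme values of the enzymes fell in a few pools. Chronic DMSO replicate 4 held the highest value of all 40 pools for 5 of 10 enzymes (Pgi, Pfk, Gapdh2, Eno and Pyk), and acute DMSO replicate 5 for another 4 (Hex-A, Tpi, Gapdh1 and Pglym78). Chronic MitoQ replicate 4 held the lowest value for 5 enzymes. Eno reached 1461 CPM in chronic DMSO replicate 4 and 1194 CPM in acute DMSO replicate 5, whereas it had 774 CPM in chronic MitoQ replicate 4. Tpi had 578, 640 and 292 CPM in the same pools. Without these DMSO pools the block of 7 still had r between 0.40 and 0.96, with a median of 0.74. Acute DMSO replicate 5 had the lowest scaling factor, 0.815, and the highest ribosomal RNA share, 8.89%, and the part of these in its values was not tested.

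The features whose log2 CPM over the 40 pools was most like the mean of the 10 enzymes were Mtpbeta (r = 0.95), CG7920 (r = 0.95), Etfb (r = 0.94), eEF1gamma (r = 0.92) and scu (r = 0.92). None of these is among the 10 enzymes or the listed glycolytic steps. With the mean of the other members, Eno had r = 0.95 and Tpi 0.93, whereas Pyk had 0.89, Gapdh1 0.88 and Pgi 0.73. Pgk, the phosphoglycerate kinase that acts between Gapdh and Pglym78, came next with r = 0.92.

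The member list leaves out aldolase and phosphoglycerate kinase. Ald1, aldolase, had a log2 fold change of -0.04 (SE 0.06) over the drugs and Pgk -0.06 (SE 0.05), and neither passed. Of 16 listed glycolytic paralogs and neighbouring steps, 8 were tested, with 1 called lower and 1 called higher in the chronic against acute comparison and a median of -0.03. Hex-C, a further hexokinase, fell, with 37.0 to 97.6 CPM in chronic pools (median 59.6), against 64.3 to 122 CPM in acute pools (median 82.0). Its log2 fold change was -0.48 (SE 0.10, adjusted p = 6.54e-04 by edgeR), and 19 of 20 chronic pools lay below the acute median.

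The gene called higher was CG2964, and its fold change rested in part on chronic DMSO replicate 7. CG2964 had 847 counts there and at most 42 in any other pool, and its log2 fold change was 2.36 with that pool and 1.48 without it (adjusted p = 2.08e-05 by edgeR). Glycolytic paralogs that were near absent elsewhere also appeared in this pool. Hex-t2, a testis-type hexokinase, had 1430 counts there and at most 5 elsewhere, Ald2 941 and at most 5, and Pglym87 1087 and at most 7. The 15 testis and sperm markers were high in the same pool, as given above. Of the members, Ldh had its highest value of all pools there, whereas Pgi had 390 CPM there, the median of its group.

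**Figure D4:**
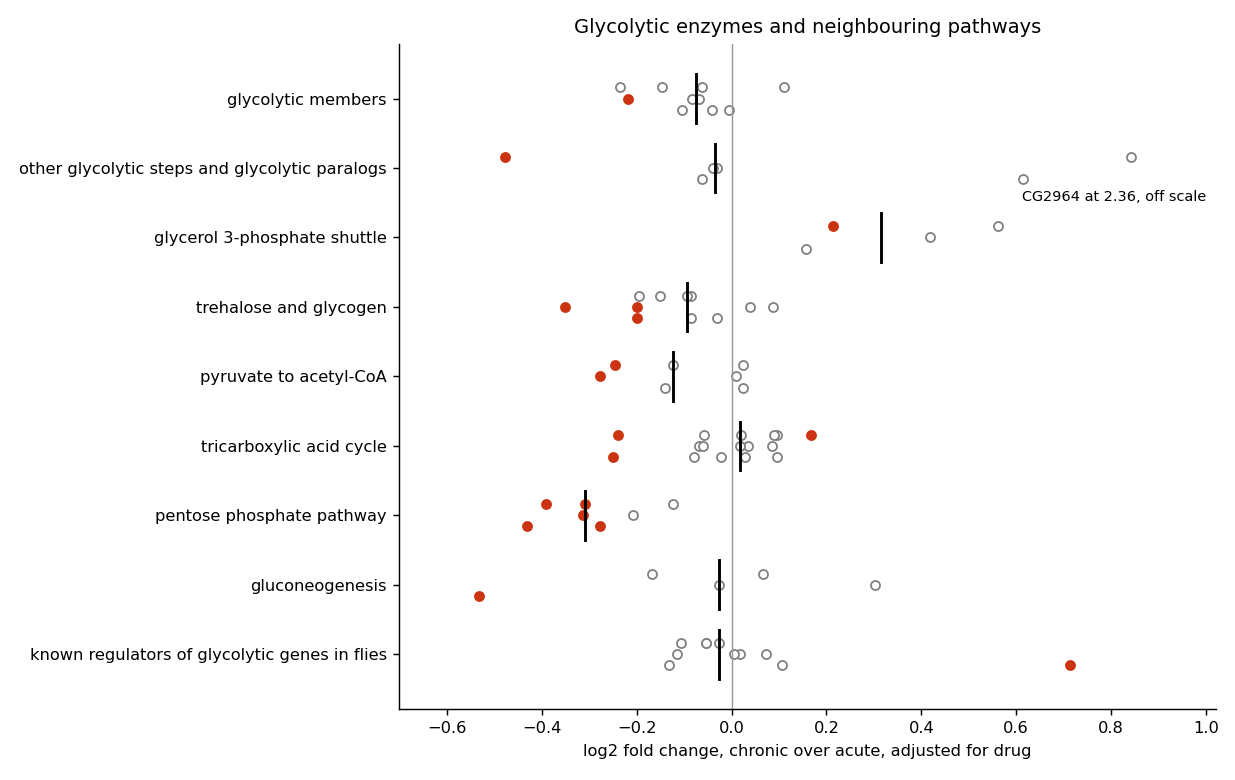
Log2 fold change of chronic over acute feeding, adjusted for drug (horizontal axis), for the 10 enzymes and for genes of neighbouring pathways, with filled points for adjusted p under 0.05 and a bar at each median. The pentose phosphate genes centre on -0.31 with 5 of 7 filled, whereas the glycolytic enzymes centre on -0.08 with 1 of 10 filled.

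The pentose phosphate pathway shares its intermediates with the early glycolytic steps, and most of its genes fell. Of 7 tested pentose phosphate genes 5 fell in chronic against acute pools over the drugs and 0 rose, with a median of -0.31. CG8036, a transketolase, had 210 to 538 CPM in chronic pools (median 331), against 368 to 625 CPM in acute pools (median 448), with a log2 fold change of -0.43 (SE 0.09, adjusted p = 0.00108 by edgeR). Taldo, transaldolase, fell by 0.39 on the log2 scale, Pgls by 0.31 and Pgd, which makes NADPH, by 0.28. In the 2-AAPA arm 2 of the 7 were called, CG8036 at -0.80 and Pgd at -0.57, and in the DMSO and MitoQ arms 0 of 7 were. The values were also mostly negative in those arms, for 7 of 7 genes in the MitoQ arm (median -0.20) and 6 of 7 in the DMSO arm (median -0.25), and the interaction of schedule and drug called 0 of 7.

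The gluconeogenic enzyme fbp, fructose bisphosphatase, which reverses the step of Pfk, fell. It had 88.3 to 174 CPM in chronic pools (median 120), against 118 to 289 CPM in acute pools (median 174). Almost all chronic pools, 19 of 20, lay below the acute median, and the log2 fold change was -0.53 (SE 0.08, adjusted p = 1.02e-05 by edgeR). It was the only gene called of 5 on its list. The difference between fbp and Pfk was not tested.

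Genes for making, breaking down and transporting trehalose and glycogen had 3 of 11 called lower and 0 higher, with a median of -0.09. These were UGP (log2 fold change -0.35), Treh (-0.20) and Pgm1 (-0.20), which links glucose 1-phosphate to the substrate of Pgi. Beyond pyruvate, 2 of 7 tested genes fell, the pyruvate carrier Mpc1 (-0.25) and CG1544 (-0.28), whose place in this step is uncertain. In the tricarboxylic acid cycle list 1 of 16 rose, the citrate synthase kdn (0.17), and the median was 0.02. On this list 2 fell, the cytosolic malate dehydrogenase Mdh1 (-0.25) and the NADP-dependent isocitrate dehydrogenase Idh (-0.24). Both are neighbours of the cycle, whose own enzymes for these steps, Mdh2 and the Idh3 subunits, are listed separately. Gpdh1, the cytosolic glycerol 3-phosphate dehydrogenase, rose by 0.21 on the log2 scale and was the only gene called of 4 tested on its list with all pools. Without chronic DMSO replicate 7, Gpo1, the mitochondrial partner of Gpdh1, was also called higher (0.17, adjusted p = 0.0330 by edgeR), and Mdh1 had an adjusted p of 0.0514 by edgeR and no longer passed.

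Of 11 genes known to regulate glycolytic genes in flies, 1 was called in the chronic against acute comparison. This was sug, a sugar-responsive transcription factor, with 56.5 to 125 CPM in chronic pools (median 84.9), against 32.8 to 79.8 CPM in acute pools (median 49.3). All 20 chronic pools lay above the acute median, and the log2 fold change was 0.71 (SE 0.09, adjusted p = 1.01e-06 by edgeR). ERR, which switches on glycolytic genes in fly larvae, had -0.05, and sima, the hypoxia-inducible factor, had 0.02, and neither passed.

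Markers of several other tissues, not all of them in the head, moved in the same comparison. All 14 tested muscle markers had positive fold changes and 4 were called higher (median 0.18), with their sum of 15 markers between 4613 and 5993 CPM in chronic pools, against 4054 to 5155 CPM in acute pools. Of 8 fat body markers 2 were called lower and 0 higher (median -0.14), with sums between 3297 and 10624 CPM in chronic pools, against 6615 to 13090 CPM in acute pools. Every one of these muscle and fat body markers had counts in the median pool of every group. Of 5 tested midgut markers 2 were called lower, Amy-p and LManII (median of the list -0.23). Without chronic DMSO replicate 7, 4 were tested and 2 called, with a median of -0.33. Sums over 11 midgut markers lay between 263 and 603 CPM in chronic pools, the highest in that pool, against 394 to 771 CPM in acute pools. Of the 11, 2 to 5 were at 0 in the median pool of a group. Neuron markers had 8 of 9 positive values over the drugs (median 0.14) and 9 of 9 in the 2-AAPA arm (median 0.22), with 0 called. Their sums ran from 2780 to 5024 CPM in chronic 2-AAPA pools, against 2592 to 3637 CPM in acute 2-AAPA pools. The part of all these markers in the values of Pgi and the other enzymes was not tested.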

How the data were processed

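The authors deposited raw read counts per feature, which cover 17558 genes counted with featureCounts and 226 transposable element families counted with TEcount. Poly-A RNA libraries made with a directional kit had been aligned by the nf-core pipeline against the BDGP6 build, and the strand setting of the counting was not given in the sources used here. FastQC and MultiQC are named in the submitters' processing notes. No library was pooled or normalized before deposit, and 0 pairs of libraries were identical.

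Counts were scaled by TMM and tested in edgeR 4.0.16 (R 4.3.3) with a robust quasi-likelihood F test over 11477 features kept by filterByExpr, at an adjusted p (Benjamini-Hochberg) of 0.05. Schedule and drug entered an additive model, and single arms a model of the 6 groups, with all 40 libraries in each fit. Intervals are 1.96 SE either side. Counts of pools beyond the median or range of another group are descriptions and were not set against all features. Log2 CPM used a prior count of 2. Totals of 24318573 to 30104079 counts gave each member at least 222 counts per library. The fits were tested on simulated counts. The alternatives were size factors from DESeq2 1.42.0, DESeq2 itself, no filter, the ribosomal RNA share as a covariate, the replicate number as a block, the groups compared alone, a fold threshold of 1.5, cyclic LOESS in limma 3.58.1 and each of the 40 libraries left out, 32 of these added after seeing the data. All members are named in the text, with at most 4 called genes per list and the 5 features most like the mean of the members. Ald1, Pgk, ERR, sima, the testis-type paralogs and the block of 7 covarying enzymes were named outside this rule, with their values known. The members and gene lists were chosen with earlier results of these data known. Coordinates come from the Ensembl annotation of BDGP6.54, whose exon lengths equal those of the count table for all 10 members.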

Additional observations from a re-analysis of the deposited data

Results flagged for a closer look

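Within groups of 6 or 7 pools, 13 of 60 sets of values held a pool set apart from the rest by a gap that is large against the whole range (Dixon's test at the 95% level). Chance alone flags about 1 in 20 groups, and the enzymes of a pool share its library, so these are not independent. Chronic DMSO replicate 4 was the high pool for 6 enzymes, with 556.6 CPM for Pgi, 395.3 CPM for Pfk, 578.5 CPM for Tpi, 970.4 CPM for Gapdh1, 373.5 CPM for Pglym78 and 1461 CPM for Eno. It also held the lowest ribosomal RNA share, 0.262%, and the largest share of counts on the 10 enzymes, 0.723%. Acute DMSO replicate 5 was high for Hex-A at 564.3 CPM and low for Pfk at 186.4 CPM, and it had the lowest scaling factor, 0.815.

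Chronic DMSO replicate 7, the pool with testis and sperm markers, was high for Ldh at 23.9 CPM. Gapdh1 was high in chronic 2-AAPA replicate 5 at 846.5 CPM. Pglym78 was low in chronic 2-AAPA replicate 6 at 224.3 CPM, where the share of counts on mitochondrial genes, 4.37%, was the highest of all libraries. Gapdh2 was low in chronic MitoQ replicate 4 at 714.004 CPM, and Pfk was low in acute MitoQ replicate 5 at 265.2 CPM. The part of these library properties in the values was not tested.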

How the results depend on the processing

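Pgi was called lower in chronic than in acute pools under every alternative run without a fold threshold, over the drugs (46 alternatives) and in the 2-AAPA arm (47). With a fold threshold of 1.5 both counts of enzymes called became 0. Over the drugs the count was 2 with the ribosomal RNA share as a covariate, where Pyk joined, and leaving out single libraries gave 1 to 2. It was 2 without chronic DMSO replicate 4 (Pyk joined), chronic DMSO replicate 7 (Ldh joined) or acute DMSO replicate 5 (Hex-A joined). In the DMSO arm the leave-one-out counts ran from 0 to 1, the 1 being Hex-A without acute DMSO replicate 5, and in the 2-AAPA arm they ran from 1 to 1. In the other comparisons every alternative gave 0. The causes were not tested. Replicate numbers did not pair the libraries, since 96 same-numbered pairs had correlations from -0.574 to 0.623 with a median of -0.035, and with the replicate number as a block the counts were 1 over the drugs, 1 in the 2-AAPA arm and 0 elsewhere. Of 326 named values recomputed, 8 changed sign, each of them not called, and 0 called values reversed. The Ldh values rest on 222 to 658 counts per library, and its 95% interval over the drugs, -0.44 to -0.03, was the widest of the members.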
